A study of Mus musculus with 8 samples.

Results

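The genes of DNA replication were read in mouse livers that had received an A20 or a control adenovirus, before and 24 h after extended liver resection. The set held 44 genes listed by their function in replication, and 43 of them had at least 1 probe set annotated to their symbol alone, among 17790 genes tested (Chaf1a had none). The groups were post-A20 and pre-A20, livers of mice given the adenovirus rAd.A20 with human A20, and post-βgal and pre-βgal, livers of mice given rAd.βgal, the vector with β-galactosidase. All mice were BALB/c, 8 weeks old, and were injected through the penile vein 5 days before a 78% resection. Pre arrays hold the liver taken at resection and post arrays the remnant 24 h later. Each group had 2 arrays, with RNA from 3 mice pooled for each, so the spread between arrays is a spread between pools. The vectors reach 30% to 40% of hepatocytes, and the liver RNA comes from all its cells, so that fewer cells of a type and less RNA per cell cannot be told apart in any value given here. The treatment text of the post-A20 records repeats the βgal wording, while their titles and descriptions name A20, and the titles were followed. The probe sets were designed for mouse transcripts, and whether any of them reads the human transgene was not examined.

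Before a cell copies its DNA, the origin recognition complex, Cdc6 and Cdt1 load the ring-shaped Mcm2 to Mcm7 helicase onto origins, and the kinases and the Cdc45 and GINS subunits then switch it on. Polymerases α, δ and ε, held to the template by the sliding clamp Pcna, copy the strands, while ligase and nuclease join the short fragments of the lagging strand. In the adult liver most hepatocytes are quiescent, and after resection they enter the cell cycle in a wave, with the genes of this machinery under the control of the E2F transcription factors.

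A signal is the normalized intensity of a probe set on a linear scale, without a unit. The brightest probe set of a gene, by its mean over all arrays, stood for it, and differences are log2 fold changes of the signal plus 16 with their standard error (SE), from a limma model of all 8 arrays. A gene is said to have risen or fallen where the p of limma, adjusted by Benjamini-Hochberg over all 17790 genes, was under 0.05. With 2 arrays against 2, an exact permutation test of a single gene cannot give a 2-sided p under 0.333. The median signal of an array was 153 to 166, and the lowest group mean of any of the 43 genes was 70.1, above the level of 40 asked of a probe set. The arrays differed in RNA integrity: for β-actin, 3′ control probes exceeded 5′ ones 3.64-fold in post-βgal replicate 1 and 6.997-fold in pre-βgal replicate 1, against 1.27-fold to 1.62-fold in the other 6 arrays. Hepatocyte markers summed to 67576 to 78151 on all arrays. That sum rested mostly on Alb, Ttr and Apoa1, each at 15496.5 to 19358 on all arrays. Tat, of the same list, ran from 1766 in pre-βgal replicate 1 to 8760 in post-A20 replicate 2. The summed signal of 3 lists of other cells was lowest in pre-A20, and that of the remaining lists was not. The 7 markers of T and NK cells had sums of 2228 to 2477 in post-A20, 1799 to 1867 in pre-A20, 1926 to 2106 in post-βgal and 2002 to 2267 in pre-βgal. Those of the 6 markers of Kupffer cells were 3855 to 4011, 2718 to 3027, 3395 to 4156 and 4413 to 4569, and those of the 5 markers of neutrophils 2011 to 2219, 1545 to 1626, 4522 to 5196 and 2897 to 3592, in the same order of groups. Single markers did not all follow their list: pre-A20 had the lowest mean in 4 of the 7 markers of T and NK cells, 5 of the 6 of Kupffer cells and 2 of the 5 of neutrophils. The neutrophil order rested on S100a8 and S100a9, which summed to 569 to 815 in post-A20, 265 to 312 in pre-A20, 3352 to 3995 in post-βgal and 1253 to 2071 in pre-βgal. Mpo, Elane and Cxcr2 together were lowest in post-βgal, with sums of 1404 to 1442, 1233 to 1361, 1170 to 1200 and 1521 to 1645 in that order of groups. No marker of these 3 lists was under 40 on every array. Markers of B and plasma cells and of stellate cells reached their highest sums in pre-A20, with 438 to 453 and 1807 to 2194. In post-A20 they summed to 419 to 447 and 1697 to 2075, and the erythroid marker Alas2 is given with Mcm10 below. The part of other cells in the values of the replication genes was not tested.

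Most of the replication genes were lowest in pre-A20 livers. Pre-A20 had the lowest group mean in 30 of the 43 genes, against 29% of all genes, and both pre-A20 arrays lay below the other 6 arrays in 21 of them, against 11.3% of all genes. Post-βgal had the highest mean in 27 of the genes (24.7% of all genes) and post-A20 in 10 (22.3%), and both post-βgal arrays lay above the other 6 in 15 (9.69%). Without both βgal replicate 1 arrays, the arrays of low RNA integrity, pre-A20 was lowest in 31 of the 43, and after quantile normalization or median centring in 28. Leaving out single arrays gave 27 to 35. These alternatives for the count were chosen after seeing the data. The median of the 43 genes, each set against its own mean over the arrays, was −0.08 and 0.21 on the log2 scale in post-A20, −0.38 and −0.25 in pre-A20, 0.28 and 0.22 in post-βgal and 0.03 and −0.05 in pre-βgal. Both pre-A20 arrays were thus below all others, and the arrays of post-A20 stood on either side of those of pre-βgal.

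**Figure D1:**
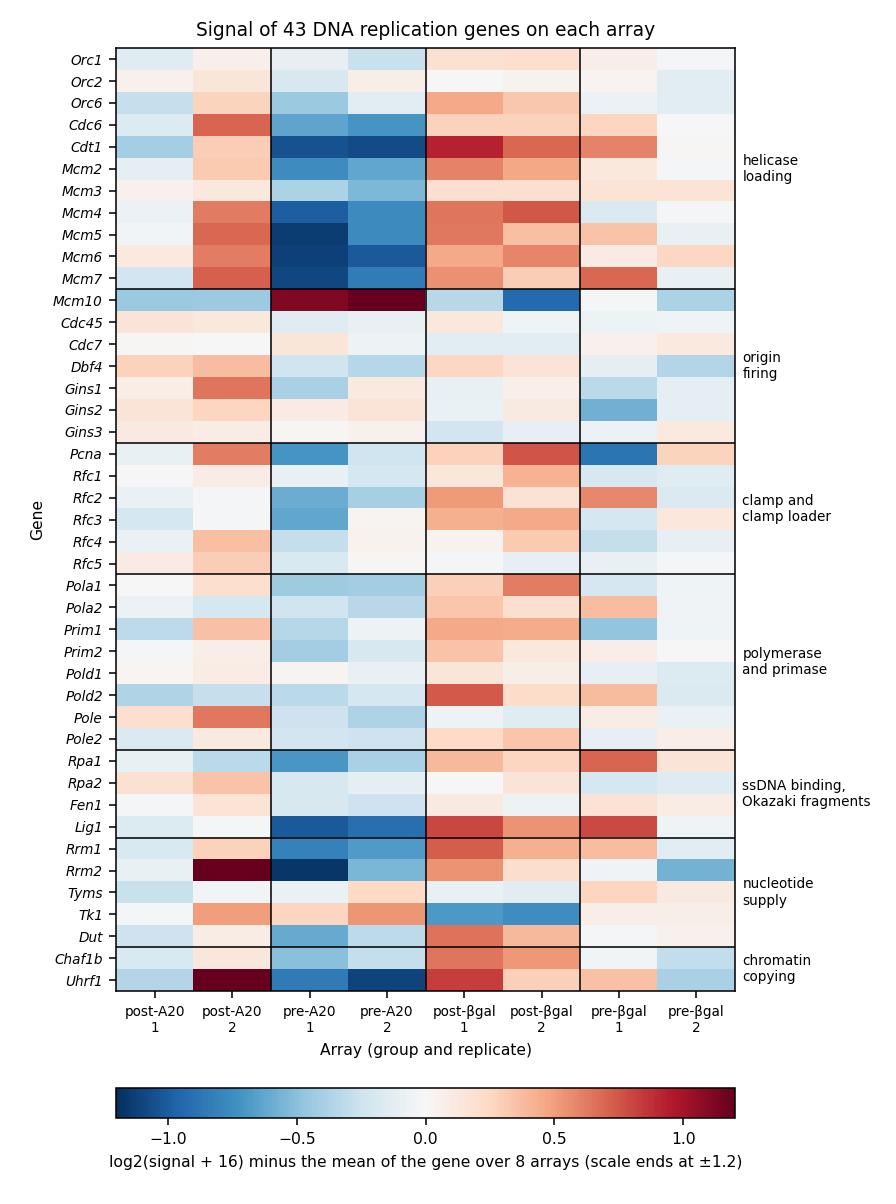
Signal of the 43 replication genes on each array, as log2(signal + 16) minus the mean of the gene over the 8 arrays, with genes in rows grouped by role, arrays in columns and colours from blue (below its mean) to red (above). The pre-A20 columns are mostly blue, with dark rows that include Mcm4 to Mcm7, Cdt1, Lig1 and Uhrf1, while Mcm10 and Tk1 are red there.

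Before resection, few of the genes passed the test one by one. In pre-A20 against pre-βgal, 2 of 43 fell and 1 rose, where 1.78% of all genes fell and 0.714% rose. Mcm6 and Lig1 were the genes that fell and Mcm10 the gene that rose. Cdt1, with an adjusted p of 0.0502 in limma, was just past the threshold. The arrays of the groups did not overlap for 23 genes with pre-A20 lower (29.3% of all genes) and for 4 with it higher (22.1%), and the median log2 fold change was −0.25, against −0.03 over all genes. An unadjusted p under 0.05 was found for 15 genes lower and 2 higher, against 13.4% and 8.41% of all genes. The count of calls was 0 without pre-βgal replicate 1 or without either pre-A20 array, 1 without either post-βgal array and 11 without pre-βgal replicate 2. It was also 0 in a fit of only the arrays compared, and 6 with RNA integrity as a covariate. Shares of all genes called in such alternatives are not given here, so these counts, and those below, are not set against them.

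After resection, none of the 43 genes differed between post-A20 and post-βgal by limma, where 0.332% of all genes did. The smallest adjusted p was 0.086, for Tk1. An unadjusted p under 0.05 was found for 3 genes higher and 9 lower in post-A20 (10.1% and 9.56% of all genes). The arrays did not overlap for 10 genes higher and 20 lower (33.7% and 26.4% of all genes). The median was −0.17, against 0.03 over all genes, and it was 0.08 without post-A20 replicate 1 and −0.40 without replicate 2. With RNA integrity as a covariate, 2 of the genes were called.

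Across resection, the estimates of most of the genes were above 0 with both vectors. In A20 livers, 38 of 43 were, against 54.4% of all genes, and in βgal livers 34 were, against 42.5%. The medians were 0.34 and 0.29, while those of all genes were 0.02 and −0.05. By limma, Mcm6 rose and Mcm10 fell in A20 livers (0.63% of all genes rose and 0.382% fell), and none of the 43 was called in βgal livers, where 2.25% of all genes were. An unadjusted p under 0.05 was found for 16 genes higher and 1 lower in A20 livers (8.88% and 6.54% of all genes), and for 9 higher and 1 lower in βgal livers (9.74% and 12.4%). The arrays did not overlap for 29 genes higher and 1 lower in A20 livers (29.4% and 22.3% of all genes), and for 26 higher and 4 lower in βgal livers (20.4% and 33%). The 2 calls in A20 livers were lost without either pre-A20 array or without post-A20 replicate 2, and with RNA integrity as a covariate 13 genes were called in A20 livers and 5 in βgal livers. In the average of both vectors, which uses all 8 arrays, 6 of the 43 rose and 1 fell, against 2.83% and 1.93% of all genes: Mcm2, Mcm4, Mcm6, Dbf4, Pola1 and Chaf1b rose and Mcm10 fell. That count ranged from 0 to 11 when single arrays were left out, with 0 without post-A20 replicate 2, post-βgal replicate 2 or pre-A20 replicate 2.

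**Figure D2:**
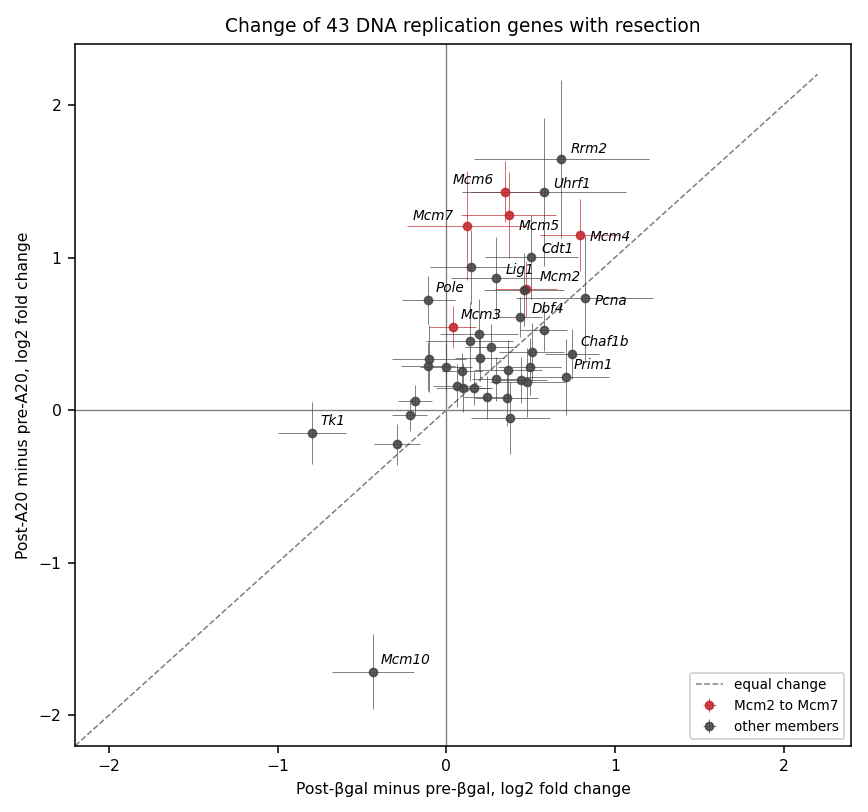
Log2 fold change with resection in A20 livers (post-A20 minus pre-A20, vertical) against that in βgal livers (post-βgal minus pre-βgal, horizontal) for the 43 genes, with bars of 1 SE and a dashed line of equal change. Mcm2 to Mcm7 lie above the line, from 0.55 to 1.43 in A20 livers and 0.04 to 0.79 in βgal livers, and Mcm10 lies alone at the lower left.

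Averaged over both times, A20 livers had lower Cdt1, Mcm2, Mcm6, Rpa1 and Lig1 and higher Mcm10 and Tk1 than βgal livers (limma, 5 genes lower where 3.31% of all genes were, and 2 higher where 2.08% were). The median of the 43 was −0.27. These calls were 0 without either post-A20, either pre-A20 or either post-βgal array, 2 without both βgal replicate 1 arrays and 14 without pre-βgal replicate 2. The interaction, the resection response of A20 livers minus that of βgal livers, passed the test for none of the 43 and for 0% of all genes. Its smallest adjusted p was 0.213 (Mcm6), and an unadjusted p under 0.05 was found for 3 of the genes higher and 1 lower (9.97% and 5.71% of all genes). The comparisons of 2 groups share arrays: pre-A20 is in both the A20 comparison before resection and the resection comparison in A20 livers, so that a low pre-A20 level enters both.

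Among the 11 genes of helicase loading were Mcm2 to Mcm7, the subunits of the replicative helicase. All 6 had both pre-A20 arrays below both pre-βgal arrays, with a median log2 fold change of −0.93, and all 6 had both post-A20 arrays above both pre-A20 arrays, with a median of 1.18. The medians were −0.17 for post-A20 against post-βgal and 0.36 for resection in βgal livers. Over the 8 arrays, which share groups and scaling, the 15 pairs of these genes had a median Pearson's r of 0.925 (0.841 to 0.973), as a description, and the 903 pairs of all the replication genes one of 0.501. Cdc6 and Cdt1, which load the helicase, had an r of 0.927 and 0.882 with Mcm6, where Mcm7 had 0.891.

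Mcm6 had a signal of 2059 and 2909 in post-A20, 863 and 936 in pre-A20, 2594 and 2857 in post-βgal and 2027 and 2248 in pre-βgal. The pre-A20 arrays thus stood alone, below all others, and the arrays of the resected groups overlapped. Mcm6 was 2.35-fold lower in pre-A20 than in pre-βgal, a log2 fold change of −1.23 ± 0.20 (SE, limma adjusted p = 0.0349), and rose 2.69-fold in post-A20 over pre-A20 (1.43 ± 0.20, adjusted p = 0.0255). In βgal livers its change with resection was 0.35 ± 0.20 (adjusted p = 0.339). A second probe set of Mcm6 had 266 and 624 in post-A20, 177 and 179 in pre-A20, 681 and 572 in post-βgal and 713 and 372 in pre-βgal, again with pre-A20 lowest.

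Mcm4 had 693 and 1128 in post-A20, 360 and 423 in pre-A20, 1144 and 1233 in post-βgal and 645 and 716 in pre-βgal. It was higher after resection with either vector on every array, by 1.15 ± 0.23 in A20 livers and 0.79 ± 0.23 in βgal livers (limma adjusted p = 0.071 and 0.12), and rose in their average by 0.97 ± 0.17 (adjusted p = 0.0189). Mcm2 had 721 and 973 in post-A20, 455 and 499 in pre-A20, 1185 and 1081 in post-βgal and 853 and 770 in pre-βgal. Its arrays did not overlap in any of the 4 comparisons, it rose with resection on average (0.63 ± 0.13, adjusted p = 0.0366), and it was lower in A20 livers averaged over both times (−0.59 ± 0.13, adjusted p = 0.0462). Mcm5 had 1063 and 1764 in post-A20 and 486 and 634 in pre-A20, against 1695 and 1401 in post-βgal and 1384 and 1022 in pre-βgal, and none of its comparisons passed the test.

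Mcm7 had 1190 and 2318 in post-A20, 649 and 776 in pre-A20, 2059 and 1716 in post-βgal and 2261 and 1314 in pre-βgal, and Mcm3 603 and 636, 444 and 396, 673 and 671, and 655 and 653. Apart from pre-A20, the group means of Mcm7 lay closer together than the 2 arrays of post-A20 or of pre-βgal did. Mcm3 was lower in pre-A20, with the other 6 arrays close together in the chosen probe set. Another of its probe sets had 362 and 583 in post-A20, 222 and 258 in pre-A20, 864 and 740 in post-βgal and 529 and 460 in pre-βgal. In that probe set the averages of A20 and of resection were −0.89 and 0.79. Their limma p, adjusted over all 42703 probe sets kept, were 0.0330 and 0.0468. Over the 5 probe sets of Mcm3, estimates for resection in βgal livers ran from −0.15 to 0.68. The A20 estimates of Mcm7 and Mcm3 before resection were −1.26 ± 0.36 and −0.62 ± 0.14 (limma adjusted p = 0.104 and 0.0623).

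**Figure D3:**
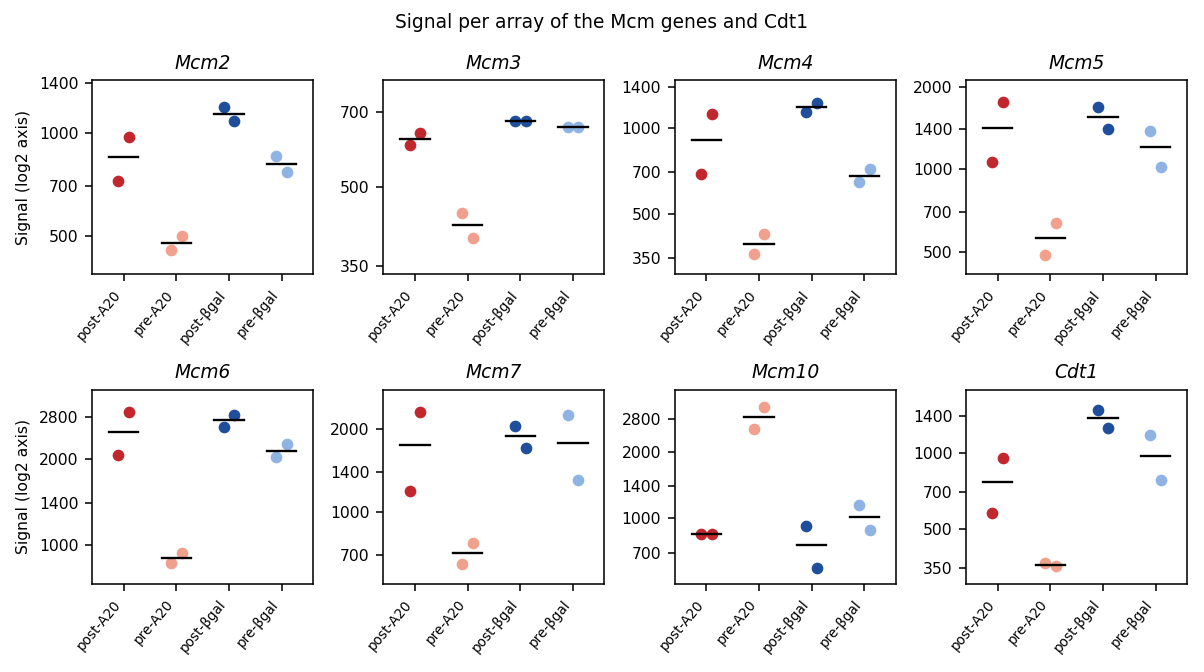
Signal per array (points, log2 axis) and group mean (lines) of Mcm2 to Mcm7, the separate replication factor Mcm10 and the loading factor Cdt1 in post-A20, pre-A20, post-βgal and pre-βgal, 2 arrays each. Pre-A20 is the lowest group of Mcm2 to Mcm7 and Cdt1, and the highest of Mcm10.

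Cdt1, which brings the helicase to the origin, had 578 and 950 in post-A20, 366 and 358 in pre-A20, 1480 and 1253 in post-βgal and 1172 and 778 in pre-βgal. A20 arrays lay below βgal arrays at both times, and the average over both times fell by 1.11 ± 0.20 on the log2 scale (limma adjusted p = 0.0271). A second bright probe set of Cdt1 had a smaller estimate before resection, −0.69 against −1.36, and its higher pre-βgal value was that of replicate 2 (475 and 724). Cdc6, the other loading factor, had 106 and 206 in post-A20, 72.3 and 67.8 in pre-A20, 151 and 150 in post-βgal and 148 and 122 in pre-βgal, with pre-A20 alone below the rest and no call. The subunits of the origin recognition complex, Orc1, Orc2 and Orc6, moved less in the comparisons that hold pre-A20. Their estimates ran from −0.21 to −0.02 for A20 before resection and from 0.14 to 0.28 for resection in A20 livers, with no call. With resection in βgal livers they were 0.16, 0.06 and 0.49, and for A20 after resection −0.23, 0.08 and −0.40. Another probe set of Orc2 had 0.65 with resection in βgal livers, with a limma p of 0.0495 when adjusted over all 42703 probe sets kept.

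E2F factors bind a short element upstream of many of these genes, and the promoters were searched for its letters. The sequences came from RefSeq, on the mouse build GRCm38.p6, as windows from 250 bases before to 50 bases after the start of each gene, and 38 of the 44 genes had one. An E2F match was one of TTTGGCGC, TTTCCCGC, TTTGCCGC or TTTCGCGC on either strand. Matches were found in 14 of the 38 genes (36.8%), against 704 of 27025 genes of the table (2.6%), and in 4 of the 5 Mcm2 to Mcm7 genes with a window (Mcm3, Mcm5, Mcm6 and Mcm7). The CCAAT box (CCAAT on either strand), the element of NF-Y, was in 23 of the 38 (60.5%), against 41.1% of genes. A match of either motif can share an end base with one of the other, as in Mcm7, and a match is a description of the letters only. The stretches below are from 4 helicase loading genes and the polymerase gene Pola1, with the E2F matches in capitals, and from Mcm10, which went the other way and had no E2F match in its window. Overlapping matches on both strands give the runs of 12 capitals in Mcm6 and Mcm5.
Mcm6, chr1:128359736-128359835, minus strand, bases −130 to −31 from the start: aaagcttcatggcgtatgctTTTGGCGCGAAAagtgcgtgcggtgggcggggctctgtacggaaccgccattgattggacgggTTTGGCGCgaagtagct
Mcm5, chr8:75109319-75109418, plus strand, bases −190 to −91 from the start: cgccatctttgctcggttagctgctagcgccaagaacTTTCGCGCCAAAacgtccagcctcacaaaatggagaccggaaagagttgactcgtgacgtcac
Mcm7, chr5:138171984-138172083, minus strand, bases −200 to −101 from the start: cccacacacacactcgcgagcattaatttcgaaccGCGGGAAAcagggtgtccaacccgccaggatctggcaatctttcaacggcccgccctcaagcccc
Cdc6, chr11:98907981-98908080, plus strand, bases −170 to −71 from the start: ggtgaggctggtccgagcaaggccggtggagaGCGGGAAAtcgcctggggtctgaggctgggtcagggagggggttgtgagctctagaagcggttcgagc
Pola1, chrX:93632226-93632325, minus strand, bases −170 to −71 from the start: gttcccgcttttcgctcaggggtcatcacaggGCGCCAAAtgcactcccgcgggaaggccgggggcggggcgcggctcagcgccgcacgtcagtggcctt
Mcm10, chr2:5012822-5012921, minus strand, bases −130 to −31 from the start: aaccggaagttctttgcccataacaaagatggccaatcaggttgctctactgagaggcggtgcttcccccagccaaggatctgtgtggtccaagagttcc

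In the 14 genes with a match the median change with resection was 0.71 in A20 livers and 0.29 in βgal livers, against 0.28 and 0.37 in the 23 tested genes with a window and no match. For A20 before resection the medians were −0.71 and −0.11, and estimates were above 0 in 2 of the 14 and 6 of the 23. Mcm10 was among those 6, while Mcm2, Rpa1 and Rrm1, also without a match, had −0.75, −0.97 and −0.86. These are descriptions, and the 14 include 4 genes of the same helicase.

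**Figure D4:**
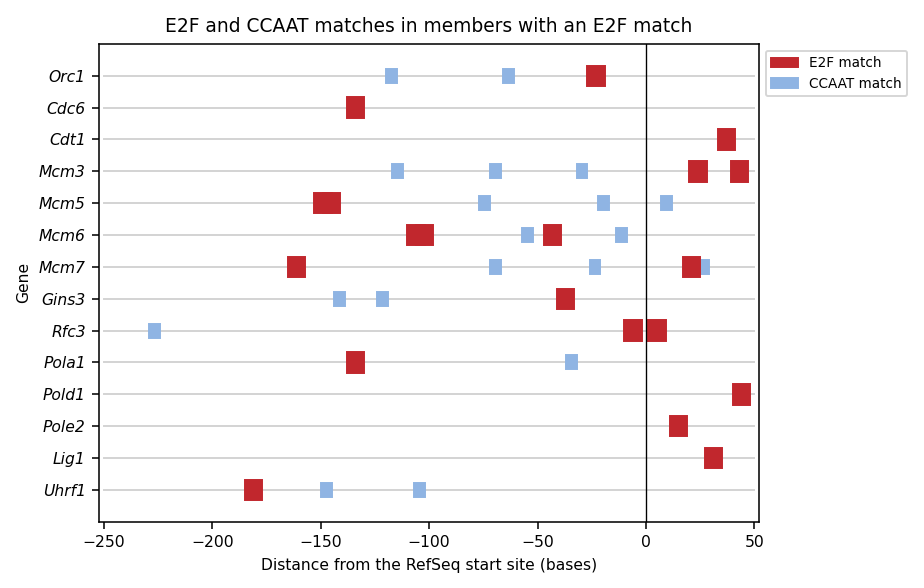
Position of the E2F matches (red) and CCAAT matches (blue) in the windows of the 14 genes with an E2F match, in bases from the RefSeq start site (0). Matches lie on either side of the start, and Mcm5 and Mcm6 hold pairs of overlapping E2F matches upstream.

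Of the 7 genes of origin firing, Mcm10, a factor that joins the activated helicase and polymerase α, ran opposite to the helicase. Its signal was 850 and 852 in post-A20, 2531 and 3162 in pre-A20, 922 and 599 in post-βgal and 1150 and 887 in pre-βgal. Both pre-A20 arrays lay above all 6 others, which overlapped. Mcm10 was 2.77-fold higher in pre-A20 than in pre-βgal (1.47 ± 0.24, limma adjusted p = 0.0361) and 3.28-fold lower in post-A20 than in pre-A20 (−1.71 ± 0.24, adjusted p = 0.0272). Its 2 other probe sets were dim and did not share this: one had 141 and 120 in post-A20, 124 and 226 in pre-A20, 116 and 104 in post-βgal and 135 and 132 in pre-βgal, and the other stayed between 37.1 and 50.04 on all arrays. Alas2, a marker of erythroid cells, also stood apart in pre-A20, with 1439 and 1333 in post-A20, 3669 and 3720 in pre-A20, 1657 and 755 in post-βgal and 2090 and 1550 in pre-βgal, while Hba-a1 was under 40 on every array. The part of such cells in the Mcm10 signal was not tested.

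Dbf4, the activator of the Cdc7 kinase that fires origins, had 413 and 442 in post-A20, 284 and 264 in pre-A20, 404 and 380 in post-βgal and 311 and 263 in pre-βgal. Post arrays were above pre arrays with both vectors, and Dbf4 rose on average by 0.52 ± 0.09 (limma adjusted p = 0.0228). It differed little between vectors, with estimates of −0.06 before and 0.12 after resection, each ± 0.13. A second, dim probe set of Dbf4, at 39.5 to 54.5 on all arrays, did not share the rise (−0.12 in A20 livers and −0.03 in βgal livers). Its A20 estimates were 0.28 before and 0.19 after resection. Cdc7 itself stayed between 179 and 221 on all arrays, with no call. The helicase cofactors Cdc45, Gins1, Gins2 and Gins3 had estimates of 0.06 to 0.50 in A20 livers and −0.19 to 0.36 in βgal livers with resection, and none was called. For A20 after resection, all 7 genes of origin firing had estimates above 0 (0.10 to 0.38), against 14 of all 43 and 54.6% of all genes. Other probe sets of Cdc45 and Cdc7 had −0.24 and −0.13. Before resection 4 of the 7 were above 0, and pre-A20 had the lowest mean in 2 of the 7.

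No gene of the sliding clamp or its loader, replication factor C, was called in any comparison. Pcna, the clamp, had the highest signal of the group: 2926 and 4775 in post-A20, 1897 and 2638 in pre-A20, 3763 and 5275 in post-βgal and 1687 and 3751 in pre-βgal. Post arrays were above pre arrays with both vectors, by 0.74 and 0.82 (± 0.41 each), but arrays of one group differed by up to 1.15 on the log2 scale, in pre-βgal, and the limma adjusted p were 0.441 and 0.277. Rfc1 to Rfc5 had estimates of 0.18 to 0.45 in A20 livers, and Rfc1 to Rfc4 of 0.14 to 0.48 in βgal livers, where that of Rfc5 was −0.0023. Rfc2, with 1076 and 1132 in post-A20, 750 and 861 in pre-A20, 1635 and 1289 in post-βgal and 1710 and 1013 in pre-βgal, had the lowest A20 estimate before resection of the 6, −0.70 ± 0.26.

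Among the 8 genes of the polymerases and primase, Pola1, the catalytic subunit of polymerase α, rose with resection on average (0.55 ± 0.10, limma adjusted p = 0.0228). It had 210 and 245 in post-A20, 152 and 153 in pre-A20, 260 and 330 in post-βgal and 181 and 202 in pre-βgal. Its arrays did not overlap in any of the 4 comparisons, with A20 below βgal at both times and post above pre with both vectors, while its second, dimmer probe set was lower after resection in βgal livers (−0.42). Pold2, a subunit of polymerase δ, had A20 arrays below βgal arrays at both times, with 394 and 417 in post-A20, 404 and 439 in pre-A20, 862 and 599 in post-βgal and 669 and 450 in pre-βgal. Its estimates for A20 were −0.37 ± 0.23 before and −0.80 ± 0.23 after resection (adjusted p = 0.387 and 0.149). With resection they were −0.05 in A20 livers and 0.38 in βgal livers.

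Pole, the catalytic subunit of polymerase ε, was lower in pre-A20 than in pre-βgal on every array and higher in post-A20 than in post-βgal on every array. It had 257 and 353 in post-A20, 185 and 168 in pre-A20, 213 and 199 in post-βgal and 237 and 209 in pre-βgal. Its interaction of 0.83 ± 0.22 had a limma adjusted p of 0.219. The estimates of the other 5 genes, Pola2, Prim1, Prim2, Pold1 and Pole2, were 0.08 to 0.34 in A20 livers and 0.10 to 0.71 in βgal livers with resection, without a call.

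Lig1, the ligase that joins Okazaki fragments, and Rpa1, the large subunit of the protein that covers single strands, were lower with A20. Lig1 had 731 and 812 in post-A20, 401 and 431 in pre-A20, 1440 and 1198 in post-βgal and 1433 and 793 in pre-βgal. It was 2.51-fold lower in pre-A20 than in pre-βgal (−1.33 ± 0.27, limma adjusted p = 0.0499), and A20 arrays lay below βgal arrays at both times (−1.04 ± 0.19 in the average, adjusted p = 0.0296). The call before resection was lost in 13 of the 22 alternatives tried, with adjusted p between 0.00958 and 0.281.

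Rpa1 had 2742 and 2324 in post-A20, 1791 and 2223 in pre-A20, 3809 and 3492 in post-βgal and 4733 and 3239 in pre-βgal, and fell in the average over both times (−0.75 ± 0.16, limma adjusted p = 0.0412). A20 arrays were again below βgal arrays at either time. The highest pre-βgal values of Lig1 and Rpa1 were those of replicate 1, the array with the lowest RNA integrity, whose part in them was not tested. The same holds for Cdt1, Mcm5, Mcm7, Rfc2, Rrm1 and Uhrf1, while 17 of the 43 genes were higher in pre-βgal replicate 2. Rpa2 and the flap nuclease Fen1 were not called through their chosen probe sets, and with resection in A20 livers their estimates were 0.41 and 0.29. A second, dimmer probe set of Fen1 moved more, with resection estimates of 1.02 in A20 livers, 0.66 in βgal livers and 0.84 on average. Its limma p, adjusted over all 42703 probe sets kept, were 0.0485, 0.0969 and 0.0129, so the lack of a call depends on the probe set. It had 491 and 639 in post-A20, 282 and 255 in pre-A20, 619 and 648 in post-βgal and 382 and 406 in pre-βgal.

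The 5 genes of nucleotide supply did not share a pattern. Tk1, thymidine kinase of the salvage path, had 727 and 1043 in post-A20, 879 and 1069 in pre-A20, 449 and 431 in post-βgal and 778 and 772 in pre-βgal. Both post-βgal arrays lay below all others, and Tk1 was higher in A20 livers averaged over both times (0.64 ± 0.14, limma adjusted p = 0.0466). With resection it changed by −0.15 ± 0.20 in A20 livers and −0.80 ± 0.20 in βgal livers (adjusted p = 0.776 and 0.0876). Rrm1 and Rrm2, the subunits of ribonucleotide reductase, had estimates of 0.79 and 1.65 in A20 livers and 0.46 and 0.68 in βgal livers, without a call. A second probe set of Rrm1 had 339 in post-βgal replicate 1 and 124 in pre-βgal replicate 1, against 1254 and 788 in the replicates 2 of these groups, while the chosen one did not show such a gap (1454 and 1180, 1132 and 791). Dut, which removes dUTP, had A20 arrays below βgal arrays at both times (−0.48 and −0.60), and Tyms, thymidylate synthase, was read through a dim probe set with 119 to 178 on the arrays.

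Of the genes that copy chromatin with the DNA, Chaf1b, a subunit of the histone chaperone CAF-1, had 250 and 316 in post-A20, 198 and 232 in pre-A20, 458 and 419 in post-βgal and 281 and 231 in pre-βgal. Post arrays were above pre arrays with both vectors, and Chaf1b rose on average by 0.56 ± 0.11 (limma adjusted p = 0.0362). Its second probe set, at 106 to 126 on all arrays, did not share this. Uhrf1, which guides maintenance methylation, had 208 and 664 in post-A20, 142 and 116 in pre-A20, 491 and 333 in post-βgal and 348 and 202 in pre-βgal, with pre-A20 lowest, a change of 1.43 ± 0.49 in A20 livers and no call.

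The 2 post-A20 pools differed in these genes. Of the 43, 38 were higher in replicate 2, against 46.2% of all genes, with a median of 0.21 on the log2 scale (−0.02 over all genes). The largest gaps were in Rrm2, with 706 in replicate 1 and 2438 in replicate 2, and in Uhrf1, with 208 and 664, which are 1.77 and 1.60 on the log2 scale. In pre-A20, 30 were higher in replicate 2 (50.5% of all genes), in post-βgal 15 (45.7%) and in pre-βgal 17 (52.8%). Of the 9 marker lists, 4 had a higher sum in replicate 2 and 5 a lower one. In replicates 1 and 2, endothelial markers summed to 1547 and 1908 (4 of 5 higher in replicate 2) and stellate cell markers to 1697 and 2075 (2 of 5 higher), against 2477 and 2228 for T and NK markers (0 of 7 higher) and 2219 and 2011 for neutrophil markers (2 of 5 higher). The part of other cells in the gap was not tested.

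**Figure D5:**
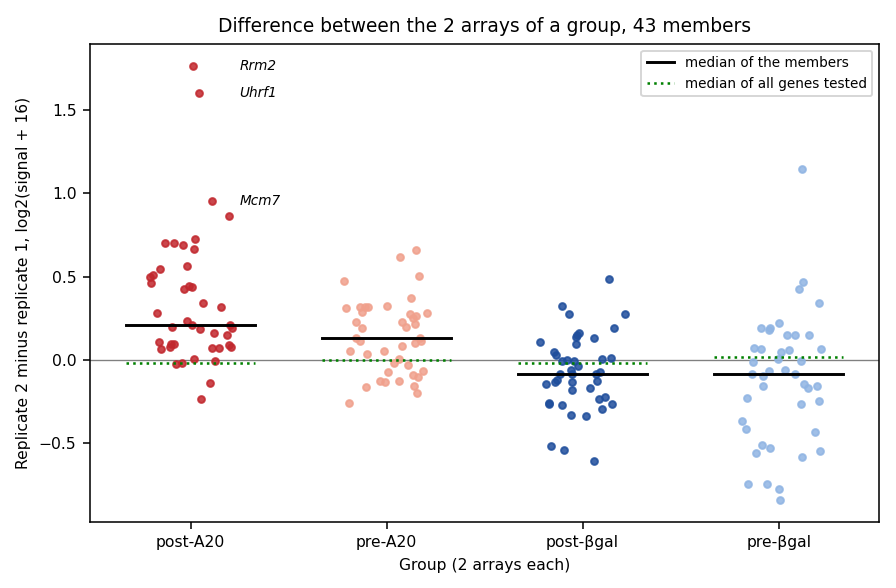
Replicate 2 minus replicate 1 on the log2(signal + 16) scale for the 43 genes (points) in each group, with the median of the genes (solid line) and of all genes tested (dotted line). In post-A20 38 of the 43 points are above 0, led by Rrm2, Uhrf1 and Mcm7.

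The level of each gene was read through 1 probe set, and other probe sets of the same gene did not always go the same way. Of the 35 genes with several, all probe sets had estimates of one sign in 19 for A20 before resection, in 17 for A20 after resection, in 29 for resection in A20 livers and in 23 for resection in βgal livers.

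Beyond the 43, a list of 40 further genes of replication, its checkpoint and nucleosome assembly was read in the same fit. Medians were −0.10 for A20 before and −0.09 after resection, 0.21 for resection in A20 livers and 0.18 in βgal livers. Dscc1 and Atad5, of clamp loader complexes related to replication factor C, fell in pre-A20 against pre-βgal (−0.58 ± 0.09 and −0.55 ± 0.11, limma adjusted p = 0.0318 and 0.0481). Nasp, a histone chaperone, rose with resection on average (0.66 ± 0.12, adjusted p = 0.0248).

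Dna2, a nuclease of Okazaki fragments, had 375 and 369 in post-A20, 345 and 367 in pre-A20, 839 and 754 in post-βgal and 413 and 500 in pre-βgal. It rose with resection in βgal livers (0.79 ± 0.15, limma adjusted p = 0.0432) and was lower in post-A20 than in post-βgal (−1.07 ± 0.15, adjusted p = 0.0406), and its change in A20 livers was 0.06 ± 0.15. The difference between these responses, −0.73 ± 0.21, had an adjusted p of 0.226. No other gene of the list was called in any of the 7 comparisons, apart from Dna2 in the average of A20 against βgal (−0.70).

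Of the 8 E2F genes themselves, E2f8, a repressor of the family, had 782 and 875 in post-A20, 437 and 424 in pre-A20, 949 and 923 in post-βgal and 644 and 612 in pre-βgal. Its order of groups was that of Mcm4 and Mcm2 in having pre-A20 lowest and post-βgal highest, and it rose with resection in A20 livers (0.92 ± 0.14, limma adjusted p = 0.0349) and on average (0.74 ± 0.10, adjusted p = 0.00945). E2f7, its relative, was lower in A20 livers averaged over both times (−0.74 ± 0.10, adjusted p = 0.0176), with 239 and 195 in post-A20, 187 and 168 in pre-A20, 409 and 389 in post-βgal and 313 and 261 in pre-βgal. E2f1, an activator, stayed between 626 and 744 on all arrays. E2f2 did not stay as level, with 250 and 252 in post-A20, 308 and 231 in pre-A20, 363 and 255 in post-βgal and 488 and 389 in pre-βgal. Its A20 estimate before resection was −0.67 ± 0.21 (limma adjusted p = 0.123), without a call.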

How the data were processed

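Liver RNA of 4 groups, 2 arrays each with RNA pooled from 3 mice, was hybridised to Affymetrix mouse arrays. The authors deposited 1 table of normalized intensity values per probe set (45101 probe sets) on a linear scale. The methods describe dChip with an invariant set and perfect-match probes, the sample records MAS5, and the sources used here do not settle which made the table. The table was used without further scaling.

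Gene symbols came from the platform annotation: 34945 probe sets had 1 symbol, 932 several and 9160 none, and 64 were controls. Probe sets with several or no symbol were named nowhere. Fits used the 42703 probe sets whose mean reached 40 in some group, taken on log2(intensity + 16) with limma 3.58.1 in R 4.3.3, with 1 mean per group, variances moderated with an intensity trend (4 residual and 3.73 prior degrees of freedom), and each gene was then read through its probe set of highest mean. Tests were 2-sided, with Benjamini-Hochberg adjustment across all 17790 genes in each of 7 comparisons. The 44 genes had 96 probe sets, of which 95 were kept. No depth is known for arrays, and their number limits the precision. The sources do not say whether the 2 pools of a group were treated on separate days, so p-values measure only the spread between these arrays, which may be partly technical.

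All 43 genes with a probe set are named, with values per array for those called in any comparison and for the 3 of smallest p in each comparison of 2 groups. Values of Mcm3, Mcm5, Mcm7, Cdc6, Pcna, Rfc2, Pole, Uhrf1, Rrm2 and Rrm1 were added after they were seen. Further replication genes are named where called. The members and lists were chosen with earlier results of these data known. The call procedure was tested on simulated data. Alternatives were other scalings, filters, offsets, variance models, probe set choices, blocks by replicate number, arrays left out, an RNA integrity covariate and a criterion on the interval of the fold change, namely a lower end of its 2-sided 90% interval of at least 1.5. The pairing check correlated the deviations of same-numbered arrays from their group means, and the numbers were not taken to pair the pools.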

Additional observations from a re-analysis of the deposited data

Results flagged for a closer look

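In 2 of the genes the arrays of one group moved one way and those of the other group the opposite way under the same contrast, and the difference was not called. Gins3, a subunit of the GINS complex, was higher in both post-A20 than in both pre-A20 arrays, with a log2 fold change of 0.06 (0.06215), and lower in both post-βgal than in both pre-βgal arrays, with −0.19 (−0.185). A second probe set of Gins3 overlapped in βgal livers, with 122 and 132 in post-βgal and 118 and 140 in pre-βgal. Pole was lower in both pre-A20 than in both pre-βgal arrays (−0.3112) and higher in both post-A20 than in both post-βgal arrays (0.5164). What singled them out is the order of 2 arrays against 2, a pattern that was not tested as such, while the limma interaction had adjusted p of 0.429 for Gins3 and 0.219 for Pole. Each order alone is common: the orders of Gins3 were met by 29.4% and 33% of all genes. Those of Pole were met by 29.3% and 33.7%. The share of all genes with both opposite orders was not computed, so the count of 2 cannot be set against it.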

How the results depend on the processing

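With 4 residual degrees of freedom, counts of calls depended on the fit, while no call changed sign in any alternative. Members called numbered, in the report, 3 for A20 against βgal before resection, 0 after it, 2 for resection in A20 livers, 0 in βgal livers, 7 for the average of A20 against βgal, 7 for the average of resection and 0 for the interaction. Leaving out 1 array at a time gave 0 to 11, 0 to 0, 0 to 5, 0 to 0, 0 to 14, 0 to 11 and 0 to 0 calls in that order. Before resection, the count was 5 without the intensity trend, 0 with only the arrays compared and 1 without both βgal replicate 1 arrays, which left 2 for the average of A20 against βgal. With the mean of the probe sets of a gene, resection in A20 livers had 1. The RNA integrity covariate gave 6, 2, 13 and 5 for the 4 comparisons of 2 groups and 14 for the average of resection. The interval criterion gave 5 before resection, 5 for resection in A20 livers, 2 and 3 for the averages of A20 and of resection, and 1 (Mcm10) for the interaction. It was met by 2.15%, 1.6%, 1.2%, 1.76% and 1.23% of all genes in that order. Variances moderated over the genes alone, an alternative chosen after seeing the data, gave 6 before resection, 1 for resection in βgal livers and 11 for the average of A20. The causes were not tested. Scaling, offset and filter alternatives kept every count within 1.5 times.

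The replicate numbers were not taken to pair the arrays: deviations of same-numbered arrays correlated at 0.675 between post-βgal and pre-βgal, but at −0.04 between post-A20 and pre-A20 and at −0.19 to 0.21 for the other pairs of groups. A replicate block gave 3, 0, 3, 0, 9, 8 and 0 calls. A replicate block within each vector gave 13, 3, 14, 7, 20, 19 and 0. Apart from the interval criterion, shares of all genes called are not given for these alternatives. Their counts therefore cannot be read as particular to the members.

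The median change of the members kept its sign in every alternative, apart from post-A20 against post-βgal, which ran from −0.40 without post-A20 replicate 2 to 0.08 without post-A20 replicate 1. For resection in A20 livers it was 0.22 to 0.49. Array signals give no count of molecules, and 2 pools per group set the limit of what these tests can call.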
